A study of Saccharomyces cerevisiae with 6 samples.

Results

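The measurements describe how barcoded deletion strains of the budding yeast Saccharomyces cerevisiae differed between the integration of a URA3 cassette at ISU1 and at SOD2. A pool of homozygous diploid deletion strains, each lacking both copies of a gene and marked by a pair of DNA tags, was transformed with a linear cassette, isu1Δ::URA3 or sod2Δ::URA3, with the circular plasmid pRS416 serving as the control. Transformants were grown for 2 days at 30 °C on solid medium without uracil, and their tags, amplified by PCR with dye-labelled primers, were compared between a cassette pool and the plasmid pool. Each cassette had 1 array. The ISU1 array had Cy5 on the plasmid side and Cy3 on the cassette side, and the SOD2 array had the dyes the other way round. The 4 expression arrays of the series were not used. Of 4303 strains with a feature in the table, 3690 had both tags measured on both arrays and are described here, 3288 of them with a gene name and 402 without. The named strains covered 3255 distinct genes. Another 540 strains had 1 tag measured on both arrays and are given only where they bear on a group. Chromosome I was thinly covered, with both tags measured in 7 of its 62 named strains.

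Placing a linear cassette at its chromosomal site needs homologous recombination between the ends of the cassette and the sequences that flank the gene, whereas a circular plasmid is kept without recombination. A recipient cell must in addition grow with the target gene replaced on 1 of its copies. ISU1 encodes the mitochondrial scaffold on which iron-sulphur clusters are built, and SOD2 encodes the manganese superoxide dismutase of the mitochondrial matrix. The comparison asks which deletion strains read differently with the cassette and its locus, as opposed to alike with both.

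The deposited values are linear ratios of the channels. Each was taken as a log2 value relative to the median of its array, and the difference of a strain is its value on the ISU1 array minus its value on the SOD2 array, averaged over its tags. The sources used here do not state whether a high ratio stands for more plasmid or more cassette. The values of the arrays correlated positively over strains (Pearson's r = 0.54, Spearman's rho = 0.38, 3690 strains on shared array positions), so the deposited signs were taken to run the same way. Levels are therefore called high or low in ratio, not in integration. With 1 array for each cassette, no p-value is given, and the cassette, the transformation, the dye orientation and the array cannot be told apart. Since the dyes were opposite, an effect of the dye on a tag would not cancel in the difference.

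The tags of a strain gave the yardstick. The difference had an SD of 0.454 over strains, with 5th, 50th and 95th percentiles of −0.85, −0.02 and 0.63. The SD between the tags of a strain was 0.404 for the difference from 1 tag, which corresponds to 0.286 for the mean of a pair. The tags' differences correlated with r = 0.44 over strains (rho = 0.45), below the r = 0.66 and 0.74 of the tags' levels on the ISU1 and SOD2 arrays. Tags gave the same sign in 2449 strains, which is 66.4%, and lay more than 1 log2 unit apart in 244. Tags share the pools, the dyes and the array, so this spread leaves out the variation between transformations.

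**Figure D1:**
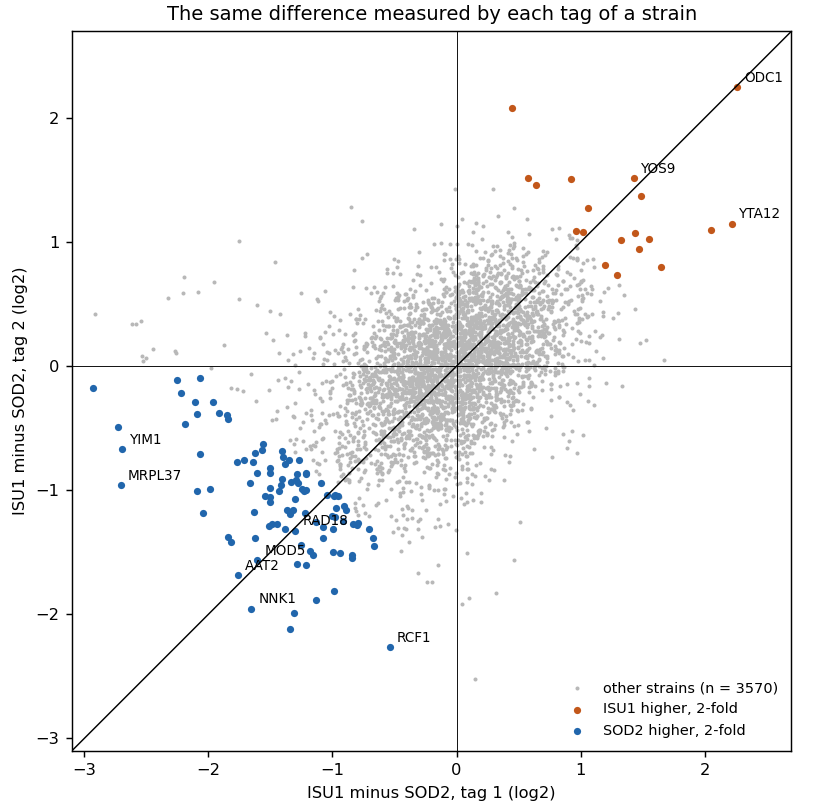
Difference between the ISU1 and SOD2 arrays (log2) from the tag of the lower feature number (x axis) and from the other tag of the same strain (y axis), 1 point a strain. ODC1 lies on the line of equal values at 2.26 and 2.25, while strains such as YIM1, at −2.69 and −0.67, rest mostly on 1 tag.

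A strain was counted as different where its mean difference was at least 2-fold, which is 1 log2 unit, and its tags had the same sign. By this count 101 strains (2.74% of all) were higher on the SOD2 array and 19 (0.515%) were higher on the ISU1 array. Both tags passed 2-fold in 37 and 10 of them. Another 11 strains passed 2-fold in the mean with tags of opposite sign and were not counted. The split depended on how the arrays were normalized. Quantile normalization gave 75 and 38 strains, so that 33.6% of the counted strains were higher on the ISU1 array, against 15.8% in the main setting. This share was 18.2% with the arrays scaled to 1 spread and 8.6% with no centring. Just inside and outside the threshold lay MDM20 at −1.01 and RPS25A at −0.998 on the SOD2 side, and FLO10 at 1.005 and ARL3 at 0.996 on the ISU1 side.

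**Figure D2:**
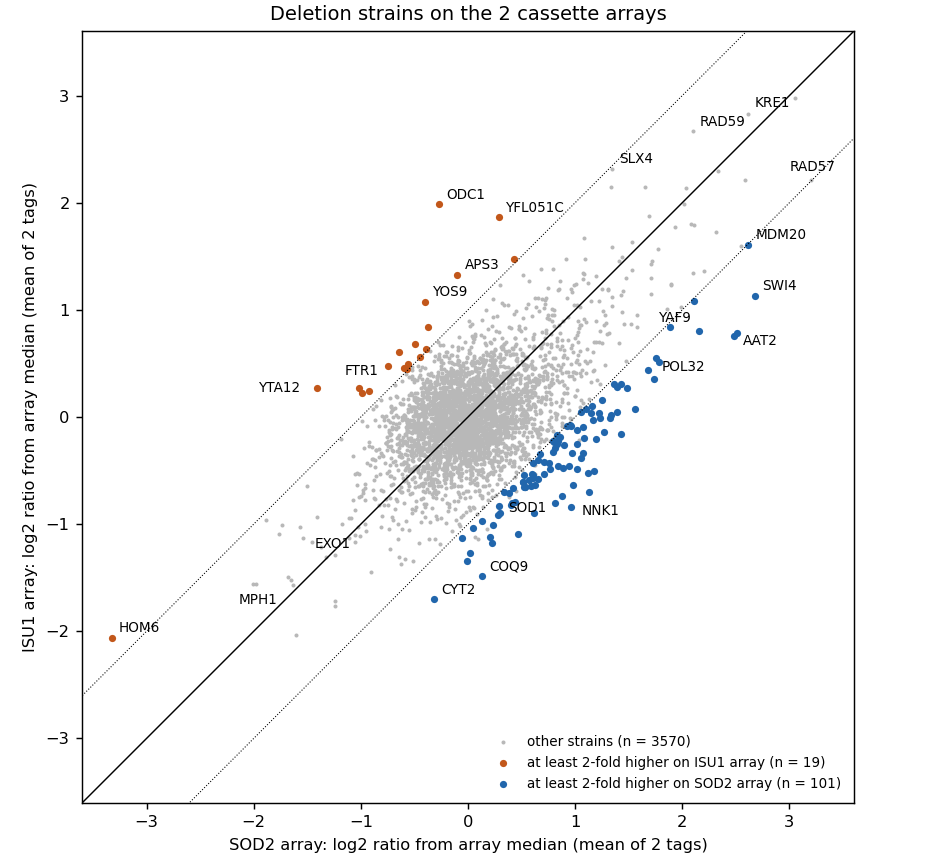
Mean log2 ratio of each strain on the SOD2 array (x axis) and the ISU1 array (y axis), relative to the array median. The solid line marks equal values and the dotted lines 2-fold differences. The 19 strains above the upper line and the 101 below the lower one that are coloured had both tags on the same side.

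The strains higher on the SOD2 array had a median ratio of 0.86 on that array and −0.41 on the ISU1 array (log2). Of the 101, 98 lay above the median on the SOD2 array and 77 lay below it on the ISU1 array. The 19 strains higher on the ISU1 array had medians of 0.56 there and −0.56 on the SOD2 array. Both groups were counted on the difference between the arrays, so levels on opposite sides of the median follow in part from the count. Among 56 strains at least 2-fold above the median on both arrays, the median difference was −0.13 and 3 were counted, which is 5.36% against 3.25% over all strains. Among 23 strains at least 2-fold below it on both, the median difference was 0.13 and 1 was counted, which is 4.35%.

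At the ISU1 locus, the strain with the highest difference of all was deleted for the gene next to the integration site. ODC1, which encodes a mitochondrial oxodicarboxylate carrier, follows ISU1 in the gene order of chromosome XVI. Its tags read 1.96 and 2.01 on the ISU1 array and −0.30 and −0.24 on the SOD2 array, a difference of 2.25 or 4.77-fold. It was the only counted strain past 4-fold. The next gene on that side, RDS2, a zinc cluster transcription factor of gluconeogenesis genes, read 0.49 and 0.82 against −0.39 and 0.20, with a difference of 0.75. On the other side of ISU1, the strain deleted for GIP3, whose product binds the protein phosphatase Glc7, was high on both arrays. Its tags read 0.91 and 1.29 on the ISU1 array and 0.70 and 0.69 on the SOD2 array, a difference of 0.40. The other 6 measured neighbours of ISU1, FRK1, MKK2, UME1, SPP1, COX11 and SPO19, had differences between −0.67 and 0.37. Thus 1 of 9 neighbours with both tags was counted, against 3.25% over all strains.

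The isu1 deletion strain had only 1 tag measured on both arrays and is not among the 3690. Its measured tag had a ratio of 0.05 on the ISU1 array, or −4.32 relative to the median, with 0 features lower on that array. The same tag had a ratio of 1.03 on the SOD2 array, so that the difference from this tag was −4.28. Its other tag was empty on the ISU1 array and had a ratio of 0.99 on the SOD2 array. The strain that lacks the target of the cassette was therefore near the median when the cassette went to SOD2 and at the bottom when it went to ISU1. The corresponding sod2 strain had 1 feature, with a ratio of 0.70 on the ISU1 array and no value on the SOD2 array.

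Beside SOD2 on chromosome VIII, 3 of the 10 nearest genes had a strain with both tags. The nearest of them, TDA3, the gene next to SOD2, which encodes a putative oxidoreductase, read 0.54 and −0.56 on the ISU1 array and 1.72 and 0.93 on the SOD2 array. Its difference was −1.33, with −1.18 and −1.49 from the tags. ODC1 and TDA3 thus each read over 2-fold higher on the array of the cassette beside them. GIP3, on the other side of ISU1, differed by only 0.40, less than 2 SDs between tags for the mean of a pair (0.571). A part of the site in these values was not tested. STP2, a transcription factor for amino acid permease genes, and VPS29, a retromer subunit, had differences of −0.22 and 0.47. The values of a further pair of genes rest on 1 tag. RPL27A, which encodes a ribosomal protein, read 1.38 on the ISU1 array against −0.41 on the other, and so was higher away from its own site's cassette. ARD1 read 0.80 and 2.55.

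**Figure D3:**
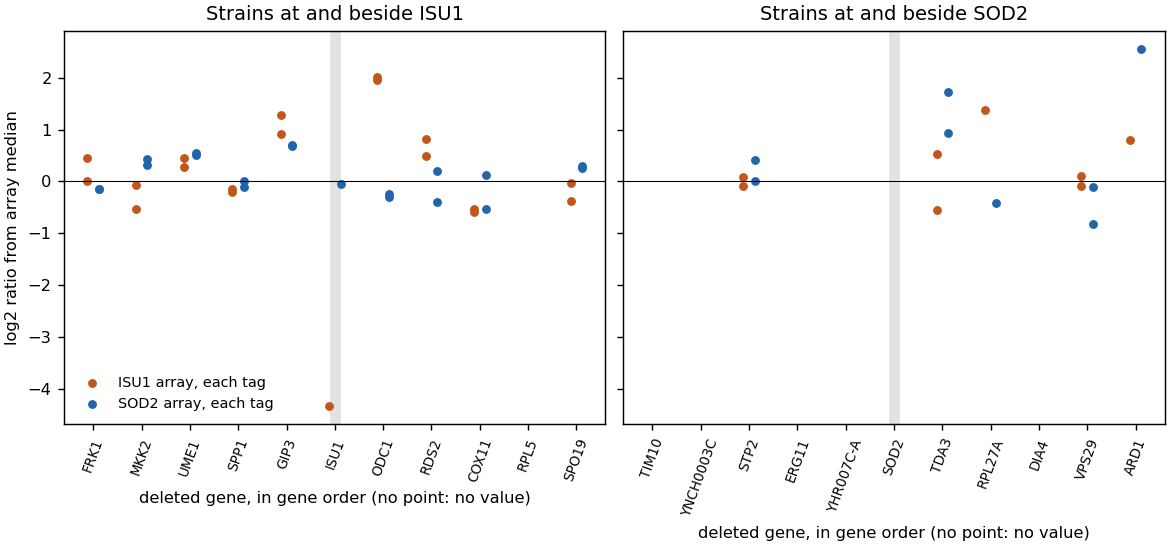
Log2 ratio from the array median of each tag for strains deleted for the 5 genes on each side of ISU1 (left) and SOD2 (right), in gene order, with the ISU1 array in orange and the SOD2 array in blue. ODC1 stands near 2 on the ISU1 array alone, TDA3 is higher on the SOD2 array, and the isu1 strain lies at −4.32 on the ISU1 array.

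DNA repair held a group on the SOD2 side. The RAD6 pathway ubiquitinates the replication clamp at stalled forks and passes the damage to translesion polymerases or to an error-free branch. Of its 7 measured strains, 6 were below 0 and 3 were counted, with a median difference of −0.68. Over all 3690 strains, 52.4% were below 0, 2.74% were counted on the SOD2 side and the median was −0.02. RAD18, the ubiquitin ligase that starts the pathway, read −0.12 and 0.16 on the ISU1 array and 1.18 and 1.49 on the SOD2 array. Its difference was −1.31, and the ranges of its tags did not overlap. RAD5, the ligase and helicase of the error-free branch, read 0.26 and −0.67 against 1.25 and 1.14, a difference of −1.40.

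POL32, a subunit of DNA polymerase delta that also serves translesion synthesis, read 0.06 and 0.66 against 1.54 and 1.93, a difference of −1.38. The conjugating enzymes that work with Rad5 were measured by 1 tag. MMS2 read −1.51 on the ISU1 array against 0.32 on the other, and UBC13 read −0.69 and 0.85. With these strains of 1 tag included, the median of the pathway was −1.31, against −0.68 from strains with both tags. Such a median is given for no other list. The translesion polymerase genes lay nearer 0. REV7 had a difference of −0.68, RAD30 of −0.31, REV1 of −0.08 and REV3 of 0.21.

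The other recombination genes mostly differed by less than 2-fold between the arrays, including those far from the median. RAD10 and RAD1, which encode the flap endonuclease that trims non-homologous ends, were high throughout. RAD10 read 1.93 and 2.04 on the ISU1 array and 2.04 and 1.99 on the SOD2 array, and RAD1 read 2.22 and 2.07 against 1.63 and 1.68. Their differences were −0.03 and 0.49. SLX4, a scaffold for structure-specific nucleases, read 2.52 and 2.11 against 1.61 and 1.08, a difference of 0.97 that stayed just under the threshold. For the mean of a pair, 2 SDs between tags come to 0.571, which SLX4 exceeded and RAD1 did not. The SD over all strains was 0.454.

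Within the RAD52 group of homologous recombination genes, RAD57 read 1.62 and 2.81 on the ISU1 array and 2.73 and 3.68 on the SOD2 array, a difference of −0.99. RAD59, a relative of the strand-annealing protein Rad52, read 1.99 and 3.34 against 1.99 and 2.21. Its difference of 0.57 came from 1 tag, since the tags gave 0.01 and 1.13. The 4 strains of the Shu complex, which takes part in homologous recombination, had differences between −0.18 and 0.56. None was counted, against 3.25% over all strains.

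Low ratios were shared as well. EXO1, the exonuclease of long-range end resection, read −1.56 and −1.06 on the ISU1 array and −1.17 and −1.48 on the SOD2 array, a difference of 0.02. MPH1, a helicase that unwinds recombination intermediates, read −1.43 and −1.69 against −1.92 and −2.08, a difference of 0.44. FUN30, the nucleosome remodeller the study is named for, had 1 tag, at −1.43 and −1.20. Of 10 strains of the DNA damage checkpoint none was counted, against 3.25% over all strains. The furthest was DDC1, a subunit of the checkpoint clamp, with a difference of 0.86. All 4 measured strains of non-homologous end joining lay between −0.34 and 0.12.

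**Figure D4:**
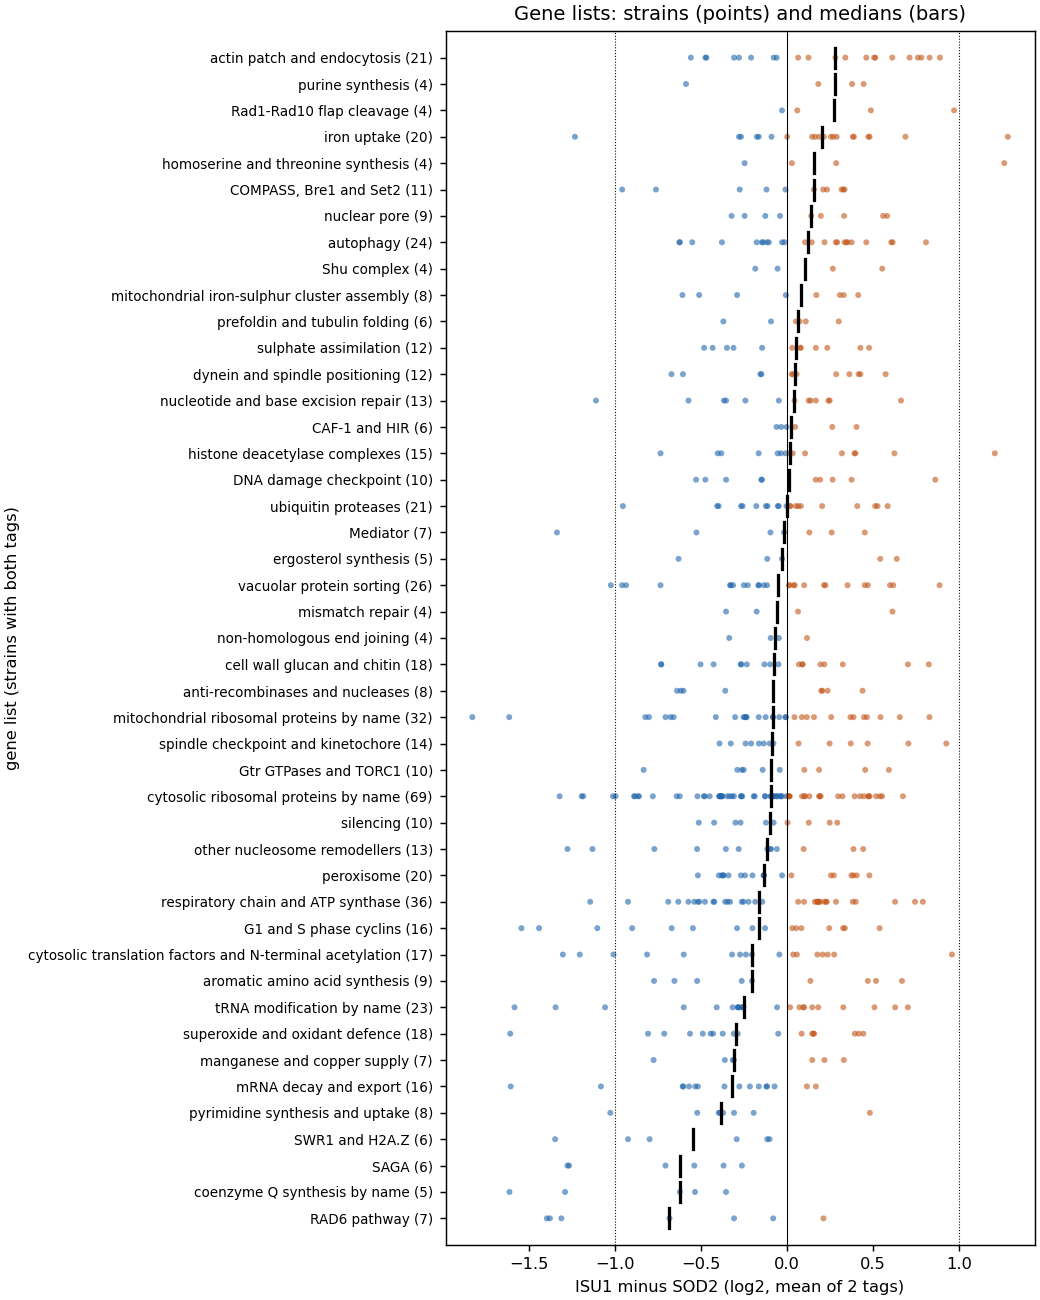
Difference between the ISU1 and SOD2 arrays (log2, mean of the tags) for each strain of the gene lists with 4 or more strains, ordered by the median (black bar). Points left of 0 were higher on the SOD2 array. The RAD6 pathway, coenzyme Q synthesis, SAGA and SWR1 lists have the lowest medians, at −0.68, −0.62, −0.62 and −0.55.

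Among chromatin and transcription lists, some lay near the shares over all strains and others lay below 0. The COMPASS, Bre1 and Set2 list had 6 of 11 strains above 0, against 47.6% over all strains, and a median of 0.16. None was counted, against 3.25% over all strains. From 1 tag, SWD1 of this list was at −1.49 and RTF1 at 0.36. Histone deacetylase complexes had 8 of 15 above 0, beside the same 47.6%, and a median of 0.01. On the ISU1 side 1 was counted, against 0.515% over all strains. SWR1 is a remodeller that places the histone variant H2A.Z in nucleosomes, and all 6 strains of its list were below 0, against 52.4% over all strains, with 1 counted, against 2.74%. YAF9, a reader subunit shared with a histone acetyltransferase, read 0.61 and 1.00 on the ISU1 array and 2.00 and 2.32 on the SOD2 array, a difference of −1.35. HTZ1, which encodes H2A.Z itself, had a difference of −0.93, and SWC5 of −0.80. The catalytic subunit SWR1 differed by −0.11 while high on both arrays, at 0.71 and 0.83.

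The SAGA list, which holds subunits of that coactivator, the related ADA proteins and the remodeller Chd1, had all 6 strains below 0 and 2 counted, beside the same shares of 52.4% and 2.74% over all strains. SPT8, a subunit that contacts the TATA-binding protein, read 0.63 and 0.40 against 1.98 and 1.59, a difference of −1.27. CHD1 read −0.22 and −0.17 against 1.28 and 0.89, a difference of −1.28. SPT3, the partner of Spt8, and SGF73, of the deubiquitinating module, had differences of −1.28 and −1.47 from 1 tag, while GCN5, the acetyltransferase, was at −0.09. SRB8, of the Mediator kinase module, read −1.47 and −1.22 on the ISU1 array and −0.32 and 0.31 on the SOD2 array, a difference of −1.34. Its module partner SSN3 was low on both arrays, with −1.47 and −2.06 against −1.14 and −1.34.

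In the cell cycle, 3 of 16 strains of the G1 and S phase list were counted, all on the SOD2 side, against 2.74% over all strains, with a list median of −0.16. SWI4, the DNA-binding subunit of the factor that drives G1 cyclin genes, read 0.86 and 1.41 on the ISU1 array and 2.94 and 2.41 on the SOD2 array, a difference of −1.55. SIC1, an inhibitor of S phase cyclin kinase, read −0.10 and −0.67 against 1.19 and 0.93, a difference of −1.44. CLB5, an S phase cyclin, differed by −1.10. Sic1 and Clb5, an inhibitor and a cyclin whose kinase it inhibits, were thus on the same side. WHI5, a repressor of the Swi4 factor, was at −0.90 and not counted.

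Of 16 strains in the mRNA decay and export list, 14 were below 0 (52.4% over all strains) and 2 were counted on the SOD2 side (2.74% over all strains), with a median of −0.32. EDC3, an activator of decapping, differed by −1.61, though its tags gave −2.73 and −0.49. LSM6, a subunit of the Lsm ring that binds shortened tails, read −0.94 and −1.12 on the ISU1 array and −0.03 and 0.13 on the SOD2 array, a difference of −1.08. Its partners PAT1 and LSM1, from 1 tag, differed by −1.22 and −1.06, but on other levels. PAT1 read 0.57 and 1.78 and LSM1 read 1.01 and 2.07.

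NAT1, the larger subunit of the N-terminal acetyltransferase NatA, read −0.27 and 0.82 on the ISU1 array and 1.37 and 1.59 on the SOD2 array, a difference of −1.21. ARD1, its catalytic partner, encoded near SOD2, differed by −1.75 from 1 tag. MDM20, of the acetyltransferase NatB, was high on both arrays at 1.77 and 1.44 against 2.76 and 2.48. Its difference of −1.01 shrank to −0.65 under quantile normalization. TIF1 and TIF2 encode the same translation initiation factor, eIF4A. TIF1 read −0.45 and −0.22 against 1.21 and 0.72, a difference of −1.30, and TIF2 read 0.64 and 0.24 against −0.71 and −0.34, a difference of 0.96 in the other direction.

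Of 23 strains of tRNA modification genes, a list added after seeing the data, 3 were counted, all on the SOD2 side, against 2.74% over all strains. The signs were mixed, with 13 strains below 0, or 56.5% against 52.4% over all strains, and 10 above. UBA4 was furthest above 0, at 0.70. MOD5, which adds an isopentenyl group to an adenosine beside the anticodon, read −0.34 and 0.01 on the ISU1 array and 1.27 and 1.58 on the SOD2 array, a difference of −1.59. PUS7, a pseudouridine synthase, differed by −1.35 and TRM1, a guanosine methyltransferase, by −1.06, which was −0.98 after windows of feature numbers were centred. Cytosolic ribosomal proteins had 46 of 69 strains below 0, or 66.7% against 52.4% over all strains. Of these 69, 4 were counted, which is 5.8% against 2.74%, and the median was −0.10.

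Mitochondrial genes were examined because both cassettes target the gene of a mitochondrial protein. The iron-sulphur cluster list had 0 of 8 strains counted, against 3.25% over all strains, with 4 on each side of 0. Its largest values were −0.61 for ISA2, an assembly factor, and −0.51 for ISU2, the paralogue of ISU1. Coenzyme Q synthesis, a list added after seeing the data, had all 5 strains with both tags below 0 (52.4% over all strains), with 2 counted (2.74% over all strains) and a median of −0.62. From 1 tag, COQ6 was at −0.66, COQ11 at 0.00 and COQ1 at 0.10. COQ9, a protein of the synthesis complex, read −1.79 and −1.18 on the ISU1 array and 0.26 and 0.00 on the SOD2 array, a difference of −1.62. COQ5, a methyltransferase, read −1.51 and −1.03 against 0.03 and 0.01, a difference of −1.29. Both were low on the ISU1 array and at the median on the other.

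A pair of respiratory genes had the same pattern. CYT2, the lyase that attaches haem to cytochrome c1, read −2.12 and −1.29 on the ISU1 array and −0.06 and −0.58 on the SOD2 array, a difference of −1.39. RCF1, a respiratory supercomplex factor, read −0.67 and −1.69 against −0.13 and 0.58, a difference of −1.40 in which its tags gave −0.54 and −2.27. The respiratory chain and ATP synthase list as a whole lay at the shares over all strains. It had 19 of 36 strains below 0, or 52.8% against 52.4%. It had 1 counted, or 2.78% against 2.74%, namely ATP17, an ATP synthase subunit, at −1.15.

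Mitochondrial ribosomal proteins had 20 of 32 strains below 0, or 62.5% against 52.4% over all strains, and 2 counted, or 6.25% against 2.74%. The strains of this list with 1 tag ranged from −0.92 for MRP21 to 1.13 for RSM7. MRPL22 read −0.60 and −0.67 on the ISU1 array and 1.22 and 0.75 on the SOD2 array, a difference of −1.62. MRPL37 had the lowest difference of all, −1.83, but its tags gave −2.71 and −0.96. CCM1, needed for the RNA of the small mitochondrial ribosomal subunit, read −0.62 and −0.36 against 1.01 and 1.03, a difference of −1.51. YTA12 was on the other side. It encodes a subunit of the protease of the inner mitochondrial membrane and read 0.66 and −0.12 on the ISU1 array and −1.56 and −1.27 on the SOD2 array, a difference of 1.68. AFG3, of the same protease, had 1 tag, at −0.10 and 0.24, a difference of −0.34 in the opposite direction.

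Superoxide defence, the function of SOD2 itself, held 1 counted strain with both tags. SOD1, the cytosolic copper-zinc superoxide dismutase, read −0.69 and −0.92 on the ISU1 array and 1.15 and 0.46 on the SOD2 array, a difference of −1.61. CCS1, the chaperone that loads copper into Sod1, had 1 tag, at −1.51 and 0.36, a difference of −1.87. The rest of the oxidant defence list was mostly within 2-fold. With SOD1 included, the list had 11 of 18 strains below 0, or 61.1% against 52.4% over all strains. SOD1 was the only strain counted, or 5.56% against 2.74% on the SOD2 side. CCP1, a cytochrome c peroxidase, was at −0.81 and SKN7, an oxidant-response regulator, at −0.71. Of 7 strains for manganese and copper supply none was counted, against 3.25% over all strains. SMF1, a manganese transporter, was furthest at −0.78.

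Iron uptake genes had 14 of 20 strains above 0, against 47.6% over all strains, and a median of 0.20. On the SOD2 side 1 strain was counted, or 5.0% against 2.74% over all strains. The ISU1 side also had 1, against 0.515% over all strains. FTR1, the high-affinity iron permease, read 0.34 and 0.20 on the ISU1 array and −1.20 and −0.82 on the SOD2 array, a difference of 1.29. FRE2, a surface ferric reductase, and AFT1, the activator of iron uptake genes, had differences of 0.69 and 0.48. BOL2, which takes part in the regulation of Aft1 by iron, was on the other side. It read −1.32 and −0.69 against 0.39 and 0.07, a difference of −1.23.

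The remaining strains on the ISU1 side came from varied functions. YOS9, a lectin of protein quality control in the endoplasmic reticulum, read 1.04 and 1.11 on the ISU1 array and −0.39 and −0.41 on the SOD2 array, a difference of 1.47 with 1.43 and 1.52 from its tags. APS3, the small subunit of the AP-3 vesicle coat, read 1.06 and 1.59 against −0.42 and 0.23, a difference of 1.43. SDS3, a subunit of a histone deacetylase complex, differed by 1.21, and GRX8, a glutaredoxin, by 1.17. YFL051C, a gene without a standard name, read 1.86 and 1.86 against −0.19 and 0.76, a difference of 1.57.

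HOM6, the last enzyme of homoserine synthesis, was low on both arrays, at −2.47 and −1.64 against −2.92 and −3.73. Its difference of 1.27 had tag values of 0.45 and 2.08, and it was 0.96 when the arrays were scaled to 1 spread. Actin patch and endocytosis genes had 13 of 21 strains above 0 (47.6% over all strains) and a median of 0.28. None was counted (3.25% over all strains). The median was 0.09 with the tag of the higher feature number only. ENT2, an endocytic adaptor, was furthest at 0.89 and ABP1, an actin-binding patch protein, was at 0.83.

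On the SOD2 side outside these groups, AAT2, the cytosolic aspartate aminotransferase, read 0.96 and 0.56 on the ISU1 array and 2.73 and 2.24 on the SOD2 array, a difference of −1.72. NNK1, a protein kinase, read −0.54 and −1.15 against 1.12 and 0.80, a difference of −1.80. CBC2, of the nuclear cap-binding complex, and CKA1, a catalytic subunit of casein kinase 2, differed by −1.41 and −1.36. The pyrimidine list was examined because URA3, the marker of the cassettes and of pRS416, is an enzyme of that pathway. It had 7 of 8 strains below 0 (52.4% over all strains) and 1 counted (2.74% over all strains), URA7, a CTP synthase, at −1.03, which was −0.74 under quantile normalization.

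**Figure D5:**
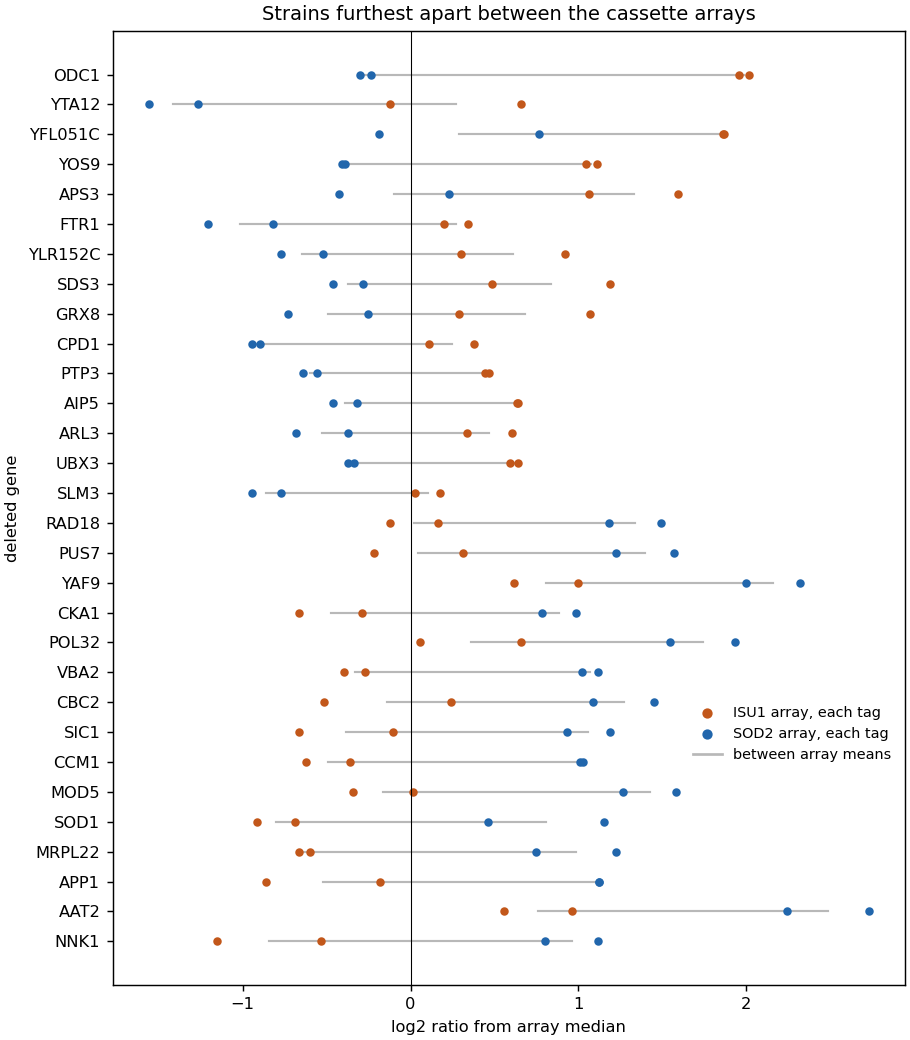
Log2 ratio from the array median of each tag (points) for the 15 named strains furthest apart in each direction, ranked by the tag nearer 0, with the ISU1 array in orange and the SOD2 array in blue. The grey line joins the array means. In all 30 strains the values of an array lie on 1 side of those of the other. The strains were chosen on these same values, so this separation follows largely from the choice.

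Some strains departed from the median on 1 array alone, here at least 2-fold on that array, with each tag at least 0.5 the same way, and by less than 0.5 on the other. High values on the SOD2 array alone were most frequent, with 44 strains, against 10 high on the ISU1 array alone. Low values were split the other way, with 15 strains on the ISU1 array alone and 4 on the SOD2 array alone. Under quantile normalization these numbers were 27 and 19 for high values and 10 and 8 for low values. ELM1, a kinase of bud morphogenesis, was among the first set, at 0.10 and 0.04 against 2.08 and 1.03. COQ9, COQ5, CYT2, RCF1, SRB8, BOL2 and LSM6 all belonged to the 15 that were low on the ISU1 array alone, and FTR1 and YTA12 to the 4 that were low on the SOD2 array alone. In 24 strains the arrays lay on opposite sides of the median by at least 0.5, and 23 of these were high on the SOD2 array.

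The difference varied with the feature number of a strain and with the chromosome of its gene. Medians over windows of 200 consecutive feature numbers ranged from −0.36 to 0.14. Chromosome medians ranged from −0.20 on chromosome XV to 0.14 on chromosome VI. Counted as higher on the SOD2 array were 16 of 318 strains of chromosome XV, or 5.03%, against 2.74% over all strains. Chromosomes III and XIV had 4.4% and 4.25%. The part of position in the counts was not tested beyond centring each window, which gave 23 strains higher on the ISU1 array and 90 higher on the SOD2 array, with 89 of the 120 strains shared. The MDM20 strain, on chromosome XV, lost its call under this setting, at −0.77. MOD5 and PUS7, on the same chromosome, kept theirs. Of the 59 counted strains named by the rule, 49 passed 2-fold under all 5 other centrings and scalings. The rule mostly takes strains with large differences, which favours this. Over all 120 counted strains, 94 were shared with quantile normalization.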

How the data were processed

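Barcode arrays of 2 colours, 1 for each cassette, were read from the table deposited by the authors, in which each feature holds a linear ratio of the channels to 2 decimals. The sources used here give neither its scaling nor its direction, and no depth applies to arrays. The 8120 features had 158 empty values for ISU1 and 42 for SOD2, and median ratios of 1.00 and 1.06. Features 10971 apart named the same gene in all 3402 pairs named on both and were treated as a strain's tags. Gene names and gene order come from the array annotation and the RefSeq table of assembly R64, which matched 7238 of 7243 annotated features. No coordinates are given, since the files name no build.

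The log2 of each ratio was centred on its array's median, averaged over tags and subtracted. Strains past 2-fold with tags of 1 sign were counted without a test. Named strains were the 15 furthest on each side by the tag nearer 0, the 5 genes each side of the targets, up to 4 per list of 53 lists, up to 8 a side set apart on 1 array and up to 4 a side on opposite sides of the median. Strains with 1 tag and further list members were named after their values were seen. The members and lists were chosen with earlier results of these data known, and 4 lists (mitochondrial and cytosolic ribosomal proteins, coenzyme Q, tRNA modification) were added after seeing the data. The procedure was tested on simulated data. Tools were pandas 2.3.3, numpy 2.4.6, matplotlib 3.10.9 and SciPy 1.17.1 under Python 3.11.15. Alternatives changed the centring, scaling, tags, filter and fold.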

Additional observations from a re-analysis of the deposited data

Results flagged for a closer look

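In 4 strains every tag moved one way on the ISU1 array and the opposite way on the SOD2 array, by at least 0.5 from the median. The values are ISU1 minus SOD2 (log2), and the difference between the arrays was not tested. NNK1, a protein kinase gene, was at −1.80. MRPL22, of the mitochondrial ribosome, was at −1.62. A strain without a gene name was at −1.51, and MCP1, of the outer mitochondrial membrane, was at −1.26. All 4 were above the median on the SOD2 array and below it on the ISU1 array.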

How the results depend on the processing

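No paired analysis was possible because each cassette has 1 array. Of the 120 counted strains, 119 were shared with separate centring of the tag sets, 114 with no centring, 107 with arrays scaled to 1 spread, 94 with quantile normalization, 100 with tag gaps of at most 1 and 89 with windows centred, a setting chosen after seeing the data. Strains higher on the ISU1 array numbered 38 with quantile normalization, 69 with the lower tag only, 41 with the higher tag only and 39 with 1 or 2 tags. Those higher on the SOD2 array numbered 197 with the lower tag only. At 1.5-fold the counts were 237 and 379, and with each tag at least 2-fold they were 10 and 37. Without centring, 13 and 139 strains were counted. The SD over strains was 0.572 with the lower tag, 0.495 with the higher tag, 0.493 with 1 or 2 tags, 0.437 with tag gaps of at most 1 (where the tags' r was 0.604) and 0.441 with windows centred. Strains high on the ISU1 array alone numbered 19 (quantile), 23 (lower tag), 20 (higher tag) and 17 (1 or 2 tags). Those low on it alone numbered 23 (scaled), 48 (lower tag) and 28 (1 or 2 tags). Those high on the SOD2 array alone numbered 27 (quantile) and 76 (lower tag). Those low on it alone numbered 2 (no centring), 8 (quantile), 25 (lower tag), 11 (higher tag), 13 (1 or 2 tags) and 2 (tag gaps of at most 1). MLO50 turned from −1.22 to 0.063 with the higher tag only. Using 1 tag rests on fewer measurements, and for the other settings the cause was not tested. With 1 array a side, the spread between transformations is unknown.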

Other observations

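Among the 540 strains with 1 tag on both arrays, 47 were at least 2-fold higher on the SOD2 array and 20 on the ISU1 array, with no other tag to set beside them. After the isu1 strain, MMS1, a subunit of a ubiquitin ligase of replication repair, was among the furthest, at 0.31 on the ISU1 array against 2.78 on the other. The other measured strains of its list, Rtt101 and H3K56 acetylation, had differences above 0. RTT101 was at 0.78 and ASF1 at 0.39 from 1 tag, and RTT107 was at 0.77 from both tags. URA4, dihydroorotase of pyrimidine synthesis, was at −1.94 and 0.44. On the other side, PHO86, needed for the export of a phosphate transporter from the endoplasmic reticulum, was at 1.77 and −0.04. These strains were chosen after their values were seen.

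In 32 genes more than 1 strain was measured with both tags. The 34 pairs of strains of 1 gene had a median gap of 0.317 in the difference and a largest gap of 1.12.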
